A study of Mus musculus with 6 samples.

Results

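The miR-379/miR-410 cluster is a run of miRNA hairpins on mouse chromosome 12, in the imprinted Dlk1-Dio3 domain. Its members were taken by name: every row of the small RNA count table called mmu-miR- with one of 38 cluster names, on either arm. This gave 70 of the 1482 rows, from 36 of the 38 hairpins, and miR-453 and miR-654 were not analysed here. Of the 70 members, 57 had at least 10 counts in at least 3 libraries and were tested. The other 13 were too rare for the test.

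The libraries came from mouse spinal cord, with 3 control-labelled ones and 3 that carry the label SCI, for spinal cord injury. Animals of the control label had their vertebral lamina removed at T10 and the cord left intact. Those of the SCI label had the same surgery followed by a contusion at T10, from a weight of 10 g dropped 20 mm, and tissue of about 1 cm around T10 was collected from all on day 2. The labels used here give no strain or age, and the libraries are taken to be from separate mice, which is what the p-values then measure.

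The labels need a caution before any direction is read. The columns of the SCI-labelled libraries have names starting with Normal, and miRNAs known to rise in injured cord were lower in them. The summed level of both arms of miR-21a, an injury-responsive miRNA, was 11089 to 12624 CPM (counts scaled to library size) in the SCI-labelled and 76185 to 129392 CPM in the control-labelled libraries. All 5 leukocyte markers were also lower, with sums of 325 to 451 CPM against 1804 to 2989 CPM. So the groups are named by their labels throughout, and a direction is that of the labels only. Library totals ran from 5568491 to 8889977 counts. Markers of neurons (13077 to 38391 CPM) and of oligodendrocytes (8164 to 10942 CPM) were present in every library. Skeletal muscle markers were too, at 38316 CPM in control-labelled library 3 and 8298 to 20224 CPM in the other libraries. Control-labelled library 3 stood apart from libraries 1 and 2, and results that rest on it are given with and without it.

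The hairpins of this cluster are cut from long noncoding RNA made from the maternally inherited chromosome, together with Meg3 and Rian, while the paternal chromosome expresses protein-coding genes such as Dlk1 and Dio3. A hairpin yields up to 2 mature miRNAs, 1 from its 5p and 1 from its 3p arm, and each recognises target mRNAs mainly through its seed, bases 2 to 8. The cluster is known from brain, where its members are abundant in neurons. miR-134-5p limits the size of dendritic spines through Limk1, and transcription of the cluster follows neuronal activity through Mef2.

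By GENCODE M21 on GRCm38, the build that mm10 names, the 36 hairpins lay within 34.7 kb, at chr12:109709060-109743795. All but miR-299b, which lies opposite miR-299a on the minus strand, were on the plus strand. The annotated gene Mirg, a long noncoding RNA at chr12:109729764-109749460, held 12 of them, from miR-382 to miR-410, and 8 of these overlapped a Mirg exon. The other 24 lay before its annotated start and in no longer gene of the annotation on their strand.

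Mature sequences of 66 of the 70 members were found in RefSeq (GRCm38.p6). The others, miR-376c-3p, miR-485-5p, miR-487b-3p and miR-539-3p, are named only. The 66 sequences held 61 distinct seeds, and 5 seeds were shared by a pair of members. The following are shown because the results turn on them: pairs alike in sequence, the hairpins whose arm ratio changed, the member with the widest difference (miR-494-3p) and the first of the run (miR-379-5p). All are on the plus strand, 5′ to 3′, with the seed in capitals.
miR-381-3p: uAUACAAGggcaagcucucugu
miR-300-3p: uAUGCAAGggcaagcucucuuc
miR-495-3p: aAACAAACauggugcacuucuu
miR-543-3p: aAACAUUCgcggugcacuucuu
miR-379-3p: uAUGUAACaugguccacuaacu
miR-411-3p: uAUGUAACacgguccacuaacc
miR-758-3p: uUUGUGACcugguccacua
miR-376b-5p: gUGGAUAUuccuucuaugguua
miR-376b-3p: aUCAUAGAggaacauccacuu
miR-376a-3p: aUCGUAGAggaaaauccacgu
miR-380-5p: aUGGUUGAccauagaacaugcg
miR-380-3p: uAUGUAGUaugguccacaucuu
miR-329-5p: aGAGGUUUucugggucucuguu
miR-329-3p: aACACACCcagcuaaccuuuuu
miR-494-3p: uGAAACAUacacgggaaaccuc
miR-379-5p: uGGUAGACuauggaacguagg

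As a whole the cluster took more of the reads in the SCI-labelled libraries. Its members held 1.47, 1.41 and 1.65% of all counts in control-labelled libraries 1, 2 and 3, and 2.59, 2.32 and 2.63% in SCI-labelled libraries 1, 2 and 3. The means were 1.51% ± 0.128 and 2.51% ± 0.17 (SD, n = 3 each), a ratio of 1.67 (exact two-sided permutation p = 0.1, the smallest that 3 against 3 can give). On the scale of CPM with TMM scaling, which corrects for differences in composition, the sums were 14757 ± 695 and 25653 ± 797 CPM (SD, n = 3 each). The groups did not overlap on either scale. The summed level of 8 neuronal miRNAs moved the same way, at 13077 to 16210 CPM against 32353 to 38391 CPM, with 4 of the 8 higher by the test. Most of that sum was miR-218-5p (mean 7548 against 19974 CPM) and miR-128-3p (4373 against 11923 CPM). The 4 that did not pass were miR-137-3p (log2 0.77), miR-138-5p (0.59), miR-132-3p (-0.11) and miR-124-3p (-0.54). So the neuronal list did not move as a set. Erythroid markers (9561 to 32776 against 2457 to 5237 CPM) and fibroblast markers (1911 to 3541 against 587 to 1096 CPM) moved the other way, with all 4 of each lower. The part of these markers in the result was not tested. In bulk tissue, fewer cells of a type and less RNA per cell cannot be told apart.

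**Figure D1:**
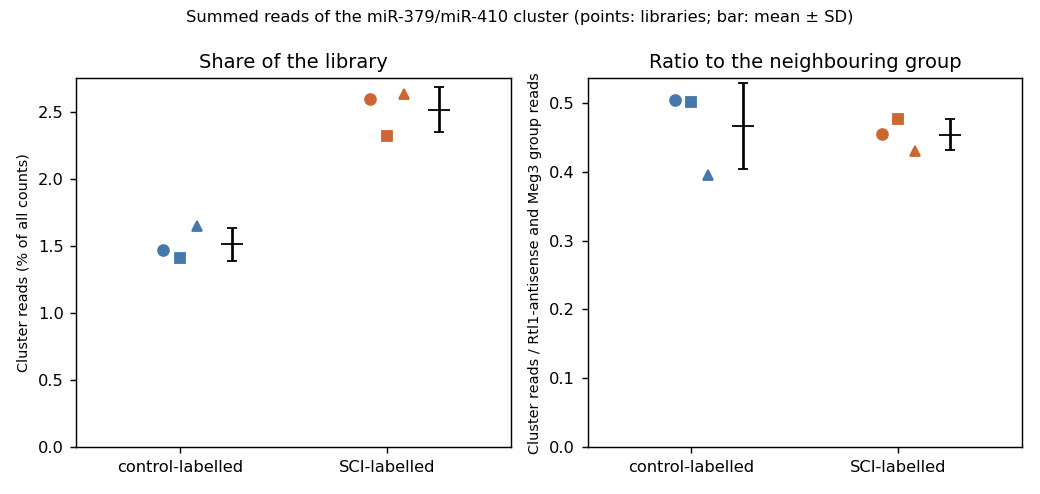
Summed reads of the cluster by library, as a percent of all counts (left) and as a ratio to the reads of the neighbouring miRNAs of the domain (right); points are libraries (circle, square and triangle for 1, 2 and 3) and bars are mean ± SD. The share was 1.41 to 1.65% under the control label and 2.32 to 2.63% under the SCI label, while the ratios of the groups overlapped, through control-labelled library 3 only.

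Single members were then compared with edgeR's quasi-likelihood test over all 621 rows kept by the same filter, with Benjamini-Hochberg adjustment. Of the 57 members tested, 21 were higher in the SCI-labelled libraries, 2 were lower and 34 did not pass. Among all rows tested, 15.3% were higher and 22.9% lower, so the cluster's share of higher members, 36.8%, was above that of the table and its share of lower ones, 3.51%, below it. The median log2 fold change was 0.45 over the members and -0.09 over all rows. Called in either direction were 40.4% of the members and 38.2% of all rows, so these shares were near each other and the difference lay in the direction. At an unadjusted edgeR p under 0.05 there were 25 of the 57 members, where 45.6% of all rows were. With no filter on low counts 21 members were higher, where 7.87% of the 1411 rows with any count were. Filtering let in 1 member, miR-666-3p, that had no control-labelled library with at least 10 counts, and it did not pass the test. miR-543-5p, which was called higher, reached 10 counts in 1 control-labelled and 3 SCI-labelled libraries. Its entry thus rested on the group where it is high, and its call adds no separate support. The count of higher members rested partly on single libraries: it was 13 without SCI-labelled library 1 (9.62% of all rows higher), 13 without 2 (11%) and 11 without 3 (8.44%). Without control-labelled library 1 it was 15 (13.5% of all rows) and without 2 it was 14 (11.1%). Without control-labelled library 3 it was 27, where 25.3% of all rows were higher. The 2 lower members remained in each of these. Below, CPM values are TMM-scaled and stand in the order of libraries 1, 2 and 3.

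The largest rises included the member with the most reads. miR-495-3p (hairpin at chr12:109718754-109718816) was at 653, 504 and 410.8 CPM under the control label against 1937, 1773 and 1326 CPM under the SCI label. This was 3.21-fold higher (log2 1.68, SE 0.24; edgeR adjusted p = 0.0012). miR-381-3p (chr12:109726822-109726896) was at 3274, 1847 and 2561 CPM against 7462, 6699 and 8604 CPM, 2.96-fold higher (log2 1.57, SE 0.24; edgeR adjusted p = 0.00149). For both miRNAs the lowest SCI-labelled library was well above the highest control-labelled one. miR-381-3p made up 17.2% ± 4.05 of the cluster's reads against 29.5% ± 2.96 (SD, n = 3 each). Without it, the cluster still held 1.16 to 1.36% of the counts against 1.71 to 1.82%.

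Another 8 members were higher with every alternative of scaling, filter and test tried and without any 1 library, as were the 2 just named. miR-543-3p was at 308, 336 and 263 CPM against 685, 681 and 901 CPM, 2.50-fold higher (edgeR adjusted p = 0.00162). miR-329-5p was at 149.7, 133.8 and 252 CPM against 418, 476 and 481 CPM (log2 1.36, edgeR adjusted p = 0.00491), with control-labelled library 3 above the others of its group. miR-376b-5p was at 137, 79.3 and 113 CPM against 318, 263 and 299.2 CPM (log2 1.42, edgeR adjusted p = 0.00254). All 3 come from hairpins before Mirg, as do the next ones. miR-380-3p stood at 103.3, 67.7 and 92.0 CPM against 252, 195 and 249 CPM (log2 1.40, edgeR adjusted p = 0.00207). miR-758-3p stood at 39.1, 30.1 and 40.2 CPM against 96.6, 88.0 and 98.3 CPM (log2 1.37, edgeR adjusted p = 0.00137). miR-411-3p stood at 115, 125 and 123 CPM against 274, 241 and 239 CPM (log2 1.05, edgeR adjusted p = 0.00268). The spread within each group was small beside the gap for these 3.

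The remaining members of this set lie inside Mirg. miR-369-5p was at 117, 104 and 79.3 CPM against 221, 193 and 249.9 CPM, 2.21-fold higher (edgeR adjusted p = 0.00464). miR-485-3p was at 64.2, 62.4 and 75.1 CPM against 129, 135 and 133 CPM, 1.97-fold higher (edgeR adjusted p = 0.00445). In all of these 10 members the groups did not overlap, which their choice by stable calls made likely. Of the 57 tested members, groups did not overlap as higher in 28 and as lower in 2. Of all rows this held as higher for 22.9% and as lower for 27.4%. Adjusted p-values with 1 library left out reached at most 0.027, for miR-369-5p.

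A further 11 members were called higher but lost the call in at least 1 setting. Among the abundant ones, miR-541-5p was at 1775, 1826 and 1425 CPM against 2238, 2757 and 2479 CPM, 1.49-fold higher (edgeR adjusted p = 0.037). Of the 6 fits that leave out 1 library, just the one without control-labelled 3 kept the call, with edgeR adjusted p-values up to 0.132. miR-411-5p was at 615, 533 and 736 CPM against 1042, 998 and 968 CPM (log2 0.68, edgeR adjusted p = 0.023), and its call too was held without control-labelled library 3 only (up to 0.0817 without the others). These 2 rises were modest and near the threshold. miR-409-3p was at 323.1, 277 and 139 CPM against 478, 564 and 522 CPM, 2.12-fold higher (edgeR adjusted p = 0.0231), with control-labelled library 3 far below its group. Its call was lost without control-labelled library 2 (0.059) or SCI-labelled library 2 (0.0746) or 3 (0.0725).

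Middle levels were held by 3 more of the 11. miR-666-5p was at 166, 174 and 106 CPM against 247, 302 and 334 CPM (log2 0.99, edgeR adjusted p = 0.0148; 0.0681 without SCI-labelled library 3). miR-485-5p, of a hairpin whose targets include synaptic genes, was at 147, 172 and 108 CPM against 231, 265 and 248 CPM (log2 0.80, edgeR adjusted p = 0.023). That call was lost without control-labelled library 1 (0.0515) or SCI-labelled 1, 2 or 3 (0.0571, 0.0783 and 0.0725). miR-668-3p was at 38.5, 50.2 and 54.2 CPM against 73.9, 82.3 and 84.0 CPM (log2 0.75, edgeR adjusted p = 0.0217), lost without control-labelled library 1 (0.0583) or SCI-labelled 2 (0.0609) or 3 (0.0725). Groups did not overlap for any of these 3.

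The other 5 were rare. miR-299a-5p was at 16.0, 12.3 and 15.3 CPM against 33.5, 34.8 and 16.0 CPM (log2 0.94, edgeR adjusted p = 0.0454); SCI-labelled library 3 lay near the highest control-labelled library at 16.0 CPM, and this was the only one of the 21 with overlapping groups. miR-300-5p was at 7.06, 4.17 and 8.24 CPM against 19.1, 11.8 and 12.8 CPM (log2 1.16, edgeR adjusted p = 0.0223). miR-539-5p was at 6.90, 5.80 and 6.81 CPM against 11.4, 11.4 and 9.53 CPM (log2 0.72, edgeR adjusted p = 0.037). Counts of these 3 were at most 273 in a library. miR-541-3p was at 4.01, 3.63 and 3.23 CPM against 6.998, 6.60 and 7.37 CPM (log2 0.95, edgeR adjusted p = 0.0176). miR-543-5p had 3, 7 and 11 counts against 31, 13 and 19 (log2 1.35, edgeR adjusted p = 0.0488). With 1 library left out, edgeR adjusted p-values reached 0.143 for miR-299a-5p, 0.0905 for miR-300-5p, 0.131 for miR-539-5p, 0.0725 for miR-541-3p and 0.18 for miR-543-5p. Calls were lost without control-labelled 1 or 2 or SCI-labelled 1 or 2 for the first, without control-labelled 2 or SCI-labelled 1 or 3 for miR-300-5p, without SCI-labelled 1 or 3 for miR-541-3p, and in every fit except that without control-labelled 3 for miR-539-5p and miR-543-5p.

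**Figure D2:**
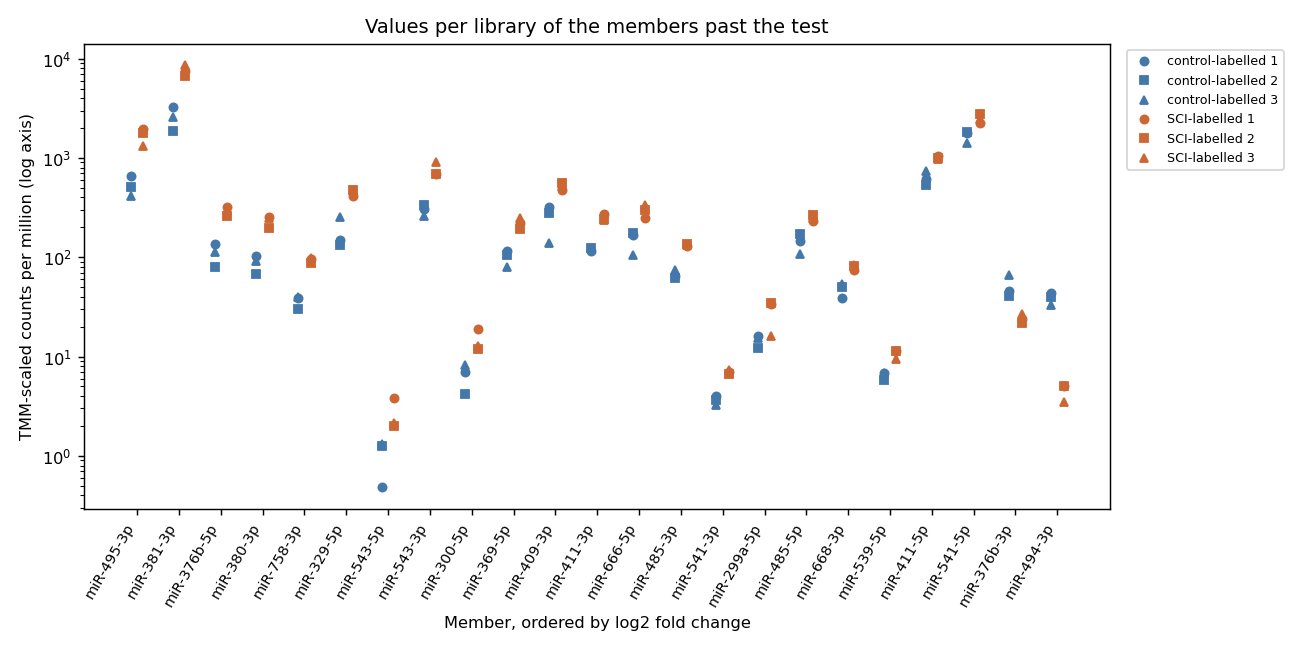
TMM-scaled CPM by library, on a log axis, of the 23 members past the test, ordered by log2 fold change; colours mark the group and shapes the library number. Except for miR-299a-5p, where SCI-labelled library 3 sits near the control-labelled libraries, the groups do not overlap, and miR-376b-3p and miR-494-3p at the right are lower in the SCI-labelled libraries.

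The 2 members that were lower came from hairpins before Mirg. miR-494-3p (hairpin at chr12:109715318-109715402) had 275, 221 and 274 counts under the control label against 41, 33 and 31 under the SCI label. As levels these were 44.1, 40.1 and 32.7 CPM against 5.03, 5.07 and 3.52 CPM. The fall was 8.59-fold (log2 -3.10, SE 0.26; edgeR adjusted p = 8.48e-05), the widest difference of any tested member, and edgeR adjusted p-values without 1 library were at most 0.00131. Its hairpin neighbours on the chromosome, miR-329 and miR-679, gave no lower call: miR-329-5p rose, and miR-679-5p was at 13.2, 5.08 and 6.21 CPM against 9.95, 14.7 and 11.7 CPM (log2 0.57, edgeR adjusted p = 0.263). miR-679-5p passed, as higher, without control-labelled library 1 (0.0282). The other arm, miR-494-5p, had at most 1 count in a library. miR-494-3p was lower in the same libraries in which the leukocyte, erythroid, fibroblast and injury markers were lower; their part in this fall was not tested.

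miR-376b-3p (hairpin at chr12:109723458-109723539) was at 45.4, 40.4 and 66.3 CPM against 23.9, 21.6 and 27.1 CPM. It was 2.09-fold lower (log2 -1.07, SE 0.24; edgeR adjusted p = 0.00963), with no overlap between groups and edgeR adjusted p-values of at most 0.0469 without 1 library. The miR-376 hairpins are known as substrates of adenosine editing in brain, and how reads with mismatches were counted is not given in the sources used here. Its own 5p arm rose, as given above, so the arms of this hairpin moved in opposite directions.

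Arm use was compared within hairpins, where library scaling has no influence. Both arms were tested in 22 hairpins of the cluster. With 4 of them (miR-411, miR-485, miR-541 and miR-543) both arms were higher, with 7 only 1 arm was, with miR-376b the arms were called in opposite directions, and with 10 neither arm passed. For miR-543 this rests on miR-543-5p, whose call adds no separate support. Among all rows tested, 15.3% were higher and 22.9% lower. The change of the arm ratio itself passed in 3 of the 22 (edgeR diffSpliceDGE, adjusted over 181 hairpins), where 30.4% of all hairpins passed. In miR-376b the 5p arm made up 75.1, 66.2 and 63.0% of the hairpin's reads against 93.0, 92.4 and 91.7% (edgeR diffSpliceDGE adjusted p = 1.54e-04). In miR-329 the 5p share was 62.3, 56.5 and 70.9% against 76.1, 75.3 and 81.9% (edgeR diffSpliceDGE adjusted p = 0.0365). The 3p arm of miR-329 was at 90.6 to 104 CPM against 106 to 156 CPM, without overlap, and did not pass as a single row.

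The miR-380 hairpin shifted the other way. In miR-380 the 5p share was 68.6, 77.4 and 64.8% against 49.9, 58.2 and 47.0% (edgeR diffSpliceDGE adjusted p = 0.0111). Its 5p arm was at 225, 232 and 169 CPM against 250.5, 272 and 221 CPM, a log2 change of 0.25 that did not pass (edgeR adjusted p = 0.387), while its 3p arm rose. The shift of miR-376b was called without any 1 library. Only it was called without control-labelled library 2, SCI-labelled library 1 or SCI-labelled library 3; miR-329 was also lost without control-labelled library 1 or SCI-labelled library 2. Without control-labelled library 1 the shift of miR-369 passed, and without control-labelled library 3 that of miR-134.

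Control-labelled library 3 had unusual arm use in 2 hairpins. In miR-409 its 5p share was 64.3%, against 30.4 and 35.0% in control-labelled libraries 1 and 2 and 27.5 to 31.6% in the SCI-labelled ones. In miR-369 it was 20.8%, against 46.8 and 42.3%, and 46.5 to 54.4%. In both, the other 5 libraries lay close together. Over the 22 hairpins, 13 had most reads on the 5p arm in both groups and 9 on the 3p arm, and none switched its major arm between the group means.

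**Figure D3:**
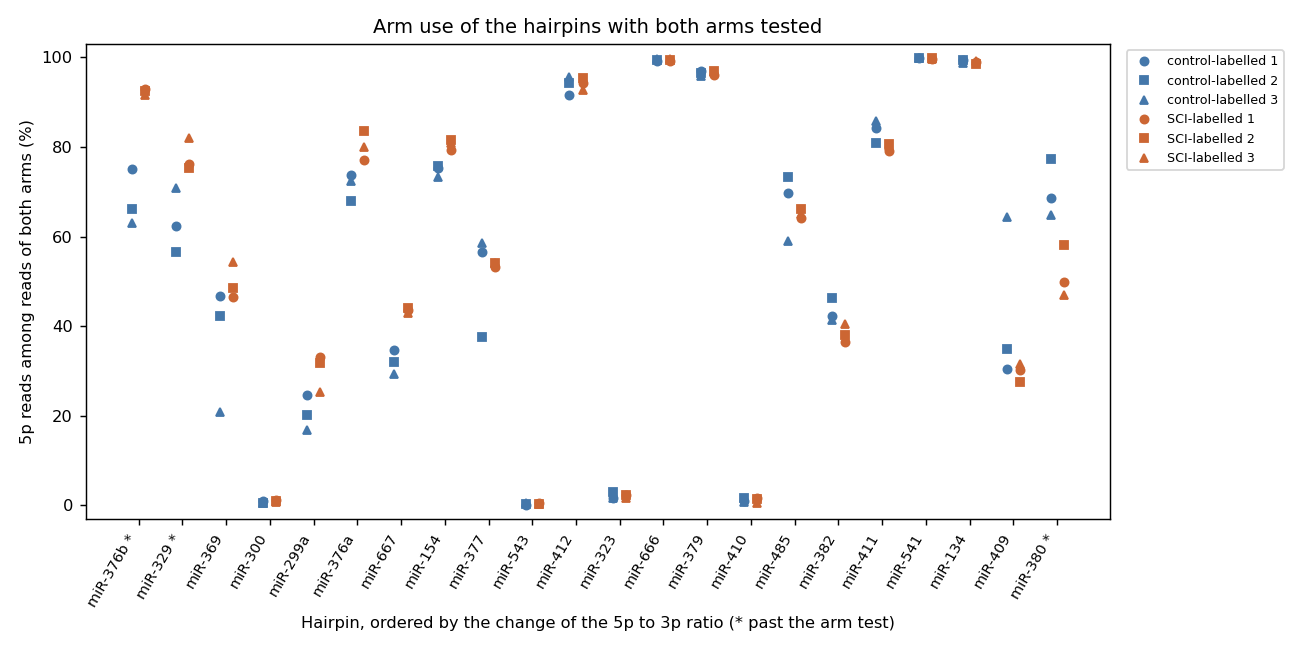
Share of 5p reads among the reads of both arms, in percent, for the 22 hairpins with both arms tested, by library (colours mark the group, shapes the library number) and ordered by the change of the arm ratio; asterisks mark the 3 past the arm test. In miR-376b the SCI-labelled libraries sit at 91.7 to 93.0% and the control-labelled ones at 63.0 to 75.1%; in miR-409 and miR-369 control-labelled library 3 stands apart.

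Members that nearly share a sequence were then compared. Pairs of tested members with at most 4 mismatches were set side by side as the ratio of their counts within a library, 7 pairs in all. Positions count from 1 at the 5′ end, with the base of the pair's first member first. miR-381-3p differs from miR-300-3p by G4A, in the seed, and by U21G and C22U at the end. Its reads were 3.98, 1.78 and 1.5 times those of miR-300-3p against 4.36, 5.55 and 5.48 times. The ratio was higher by 1.21 on the log2 scale (exact permutation p = 0.1, the smallest possible, and 0.14 adjusted over the 7 pairs). miR-300-3p itself was at 823, 1037 and 1704 CPM against 1710, 1207 and 1571 CPM and did not pass (log2 0.33, edgeR adjusted p = 0.394); without control-labelled library 3 it did (log2 0.72, edgeR adjusted p = 0.0118).

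miR-376b-3p differs from miR-376a-3p by G4A in the seed and by A13C and G20U. Its reads were 9.13, 6.76 and 5.55 times those of miR-376a-3p against 1.99, 3.81 and 3.32 times, a difference of -1.26 on the log2 scale (exact permutation p = 0.1; adjusted 0.14). miR-376a-3p was at 4.97, 5.99 and 11.9 CPM against 12.03, 5.68 and 8.17 CPM, with overlapping groups. miR-411-3p and miR-379-3p carry the same seed and differ by U10C and U22C. The ratio of miR-411-3p to miR-379-3p was 1.15, 1.22 and 1.30 against 2.22, 1.92 and 2.04, a difference of 0.75 (exact permutation p = 0.1; adjusted 0.14). miR-379-3p was at 99.8, 102 and 94.6 CPM against 123, 126 and 117 CPM and did not pass as a row (log2 0.30, edgeR adjusted p = 0.224). Its ratio to miR-758-3p parted the groups too: miR-758-3p had 0.392, 0.294 and 0.426 times its reads against 0.784, 0.70 and 0.839 times.

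The other pairs differed less. miR-543-3p differs from miR-495-3p by A6U, A7U, A9G and U10C, so their seeds differ, and both rose; the ratio was 0.472, 0.667 and 0.639 against 0.354, 0.384 and 0.68, with overlap (exact permutation p = 0.4). For miR-369-3p over miR-154-3p the groups also overlapped (exact permutation p = 0.3), and for miR-758-3p over miR-411-3p the difference was 0.33 with no overlap (exact permutation p = 0.1). Each of the 7 differences kept its sign without any 1 library. With 3 libraries a group no pair could reach 0.05. Reads matching more than 1 such member may have been shared between rows by the authors' counting, which bears on every pair here.

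The most abundant members that did not pass were next to, or above, risen ones in level. miR-379-5p, the first miRNA of the run, was at 3078, 2860 and 2174 CPM against 2932, 3883 and 3445 CPM (log2 0.34, edgeR adjusted p = 0.222). miR-382-3p was at 1039, 1131 and 1071 CPM against 1387, 1475 and 1336 CPM (log2 0.37, edgeR adjusted p = 0.108), with no overlap. miR-382-5p was at 757.8, 976 and 757.5 CPM against 795, 902 and 905 CPM (log2 0.06, edgeR adjusted p = 0.804). Groups overlapped for miR-379-5p and miR-382-5p. miR-134-5p, the regulator of dendritic spines, was at 408.9, 395 and 309 CPM against 280, 288 and 346 CPM (log2 -0.28, edgeR adjusted p = 0.307), also with overlap. miR-379-5p held 18.3% ± 2.90 of the cluster's reads against 13.3% ± 1.86 (SD, n = 3 each). Among the 34 members that did not pass, 28 had a log2 fold change above 0 and 6 below, from -0.73 to 0.89.

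Whether members moved unlike their own cluster was tested by setting each row against the summed reads of its genomic cluster, hairpins of 1 strand with neighbours under 10000 bases apart (edgeR diffSpliceDGE over 235 rows in clusters of at least 3). Of the 57 members, 1 was above its cluster and 8 below. Over all 235 rows, 4.26% were above and 14.5% below, so the members' share below was near that of the table. The members' summed reads rose 1.74-fold (TMM-scaled), and miR-381-3p made up 17.2% of them under the control label and 29.5% under the SCI label. A member below its cluster may therefore only have risen less than this sum. The member above was miR-495-3p, 1.85 times the cluster's change (edgeR diffSpliceDGE adjusted p = 0.0266). Below were miR-494-3p (0.067 times, adjusted p = 4.55e-23), miR-376b-3p (0.275 times, 1.20e-06), miR-134-5p (0.473 times, 0.0064) and miR-410-3p (0.518 times, 0.0197). miR-667-3p (0.466 times), miR-154-3p (0.503 times), miR-1193-3p (0.35 times) and miR-544-5p (0.348 times) were below as well. The test treats the rows of a cluster as independent, which libraries shared by all rows do not guarantee. The list was unstable: 4 members were called without SCI-labelled library 1, 2 without SCI-labelled 2, 5 without SCI-labelled 3 and 15 without control-labelled library 3. miR-494-3p and miR-376b-3p were called in each of these.

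The levels of 5 of these members were low or middling. miR-410-3p, the final hairpin's main product, was at 154.3, 175 and 295 CPM against 204, 155 and 203 CPM. miR-667-3p was at 30.2, 41.7 and 44.8 CPM against 33.5, 30.6 and 30.5 CPM. Neither differed by the row test (edgeR adjusted p = 0.698 and 0.302). miR-154-3p was at 10.4, 8.16 and 24.6 CPM against 15.8, 9.67 and 12.6 CPM. miR-1193-3p had 23, 13 and 44 counts against 23, 7 and 26, and miR-544-5p 8, 7 and 21 against 11, 2 and 12. In all 5 control-labelled library 3 was the highest of the 6 libraries.

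The calls are given here by position and arm. Of 35 tested members before Mirg, 14 were higher and 2 lower (median log2 fold change 0.42), and of 22 inside Mirg, 7 were higher and 0 lower by edgeR (median 0.46). By arm, 11 of 25 members on the 5p side were higher and 0 lower by edgeR (median 0.57), against 10 higher and 2 lower of 32 on the 3p side (median 0.36). Among all rows tested, 15.3% were higher and 22.9% lower, and these shares were not split by arm. The 11 include miR-543-5p, whose call adds no separate support. No test was run between these classes.

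**Figure D4:**
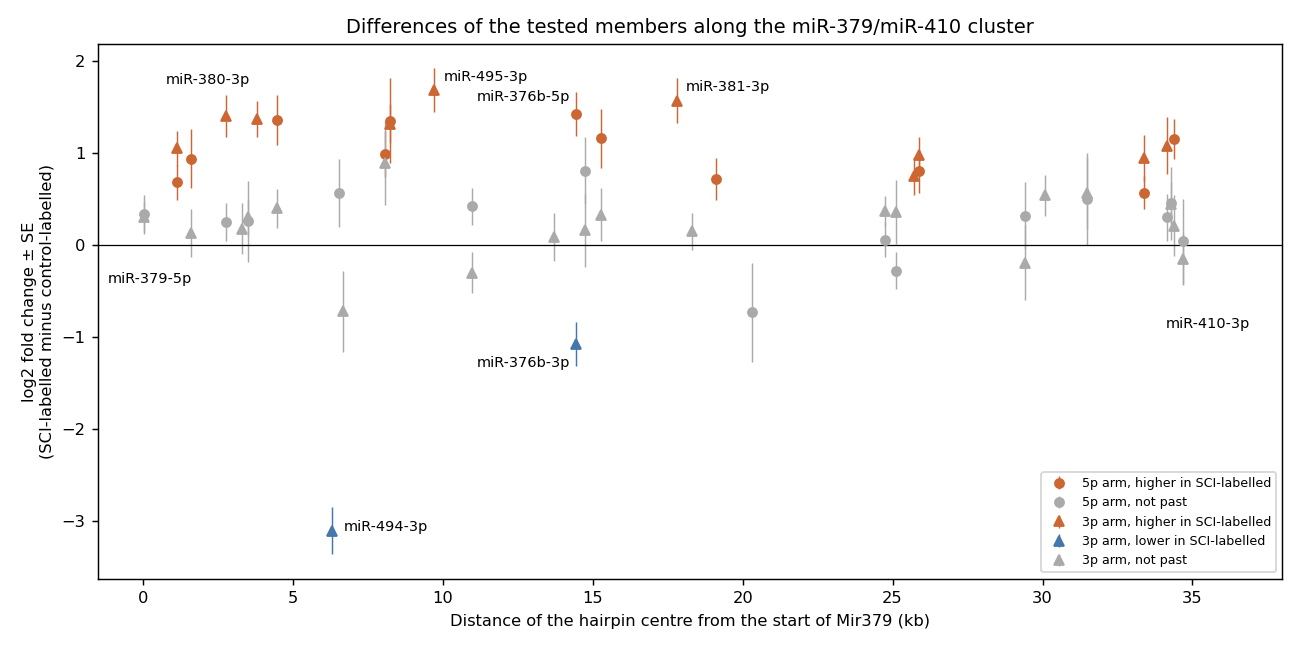
Log2 fold change ± SE (SCI-labelled minus control-labelled) of the 57 tested members by distance of their hairpin from the start of Mir379, in kb; circles are 5p and triangles 3p arms, orange marks higher, blue lower and grey not past the test. Higher members lie along the whole run, from miR-411 to miR-369, and miR-494-3p at -3.10 and miR-376b-3p at -1.07 stand apart below 0.

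Control-labelled library 3 did not shift the whole cluster. Its CPM over the mean of control-labelled libraries 1 and 2 had a median of 1.07 over the tested members and of 0.985 over all rows, but ranged from 0.406 to 2.65 between members. In 17 members it was at least 1.5-fold; 3 of these were past the test and 14 were not. The 1.5-fold count was not made over all rows. In 27 of the 57 tested members library 3 was the highest and in 16 the lowest of its group. Being highest was not particular to the cluster: of all 621 tested rows, 250 also had their highest control-labelled value in library 3. Without it 6 more members passed as higher: miR-300-3p, miR-376a-5p (log2 1.39, edgeR adjusted p = 4.06e-04), miR-154-5p (0.91, 0.00588), miR-369-3p (0.74, 0.00799), miR-496a-3p (0.67, 0.0273) and miR-409-5p (0.64, 0.0128), and all 23 calls were kept. With it, miR-369-3p was at 133, 142 and 303 CPM against 255, 206 and 209 CPM and miR-154-5p at 31.6, 25.6 and 67.7 CPM against 61.1, 42.5 and 53.1 CPM. The skeletal muscle markers of this library, given above, were also the highest of its group. Its erythroid markers (9561 CPM against 32776 and 26330 CPM in control-labelled libraries 1 and 2) and its summed endothelial markers (12386 against 28565 and 21174 CPM) were the lowest. The endothelial sum followed miR-126a-3p (11918 against 28234 and 20943 CPM). The other arm, miR-126a-5p, was highest in library 3 (468 against 331 and 231 CPM). The part of all these markers in the values above was not tested.

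Other miRNAs of the Dlk1-Dio3 domain, outside this cluster, also gave more higher than lower calls. Of 33 such rows 27 were tested, of which 9 were higher, 0 lower by edgeR and 18 did not pass, with a median log2 fold change of 0.52. The share higher was 33.3%, where 15.3% of all rows were higher and 22.9% lower. Without control-labelled library 3, 14 of 25 were higher (median 0.82), or 56%, where 25.3% of all rows were. Those rows hold the abundant miR-127-3p (log2 0.75, edgeR adjusted p = 0.0146), and miR-136 with its opposite-strand partner miR-3071, whose reads may be counted on both. The cluster's reads were 0.504, 0.502 and 0.395 times those of this group against 0.455, 0.477 and 0.431 times. The groups overlapped, and the difference was -0.03 on the log2 scale (exact permutation p = 0.8). The overlap came from control-labelled library 3. Without that library the groups did not overlap and the difference was -0.15 (exact permutation p = 0.2, the smallest that 3 against 2 can give being 0.1). Taken as medians of log2 CPM over all libraries, rather than sums, the difference was -0.38 (exact permutation p = 0.1).

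The rest of the members can be given briefly. Tested and not past the test, with values not shown above, were miR-1197-3p, miR-134-3p, miR-299a-3p, miR-323-3p, miR-323-5p, miR-376c-3p, miR-377-3p, miR-377-5p, miR-410-5p, miR-412-3p, miR-412-5p, miR-487b-3p, miR-666-3p and miR-667-5p. Of these, miR-323-3p (82.0 to 109.5 CPM against 110.1 to 128 CPM) and miR-487b-3p (70.4 to 91.0 against 84.0 to 98.0 CPM) were the most abundant. Not tested were miR-668-5p (at most 14 counts in a library), miR-381-5p (13), miR-495-5p (12), miR-544-3p (9), both arms of miR-299b (8), miR-1193-5p (6), miR-376c-5p (6), miR-539-3p (4), miR-487b-5p (3), miR-496a-5p (3), miR-679-3p (2) and miR-494-5p (1). The 2 arms of miR-299b had the same count in each of the 6 libraries, and the first 18 bases of miR-299b-3p equal those of miR-299a-3p. In control-labelled library 3 miR-299a-3p had 629 counts and both arms of miR-299b had 0. Whether these rows hold shared reads was not tested.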

How the data were processed

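Small RNA libraries had been made from 3 µg of total RNA with an NEBNext kit, per the labels' protocols. The authors deposited read counts per miRNA without normalization, and TPM values, which equal CPM over the column total to within 2.74e-05. Bowtie and mm10 are named in the submitters' processing notes; the treatment of reads matching several miRNAs, or either strand, is not given in the sources used here. Columns were assigned by the names in the samples' description field.

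Rows with at least 10 counts in at least 3 libraries (621) entered edgeR 4.0.16 under R 4.3.3 (TMM, robust quasi-likelihood F test, group as the only term, Benjamini-Hochberg over 621 rows at 0.05). Each SE was derived as the absolute log2 fold change divided by sqrt(F). Arm use and rows against their cluster used diffSpliceDGE. Single values used exact two-sided permutation tests over libraries. The steps were also run on simulated data in which each row was drawn independently. Those data hold no effects shared by the rows of a library or cluster, so they cannot vouch for the tests on that point. Alternatives used DESeq2 1.42.0 and limma 3.58.1. Depth was 5568491 to 8889977 counts, and no replicate pair agreed within sampling noise. Values per library are given for members past a test and the 5 most abundant others. The members and lists were chosen with earlier results of these data known, and the pairs alike in sequence were added after seeing the data.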

Additional observations from a re-analysis of the deposited data

How the results depend on the processing

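The 2 lower members were called under all 17 alternatives, and 10 of the 21 higher ones too; the other 11 lost the call in at least 1, and 8 members that had not passed did so in at least 1. No called member changed sign. The count of higher members was 16 with library totals (11.9% of all rows higher), 21 with RLE (16.3%), 23 with upper quartile (18.2%) and 23 with TMM without the cluster (17.9%). It was 21 with each other filter (16.3% with filterByExpr or a sum of 60 counts, 7.87% with none), 21 with DESeq2 (16.8%), 19 with limma voom (15.8%) and 16 with limma on log2(TPM + 1) (12.9%). Scaling moved the median log2 fold change of all rows from -0.09 to between -0.14 (library total) and 0.04 (upper quartile), and that of the members to between 0.40 and 0.58. With 1 library left out, the count of higher members ran from 11 to 27, that of lower members was 2, arm shifts ran from 1 to 4, members unlike their cluster from 2 to 15, the log2 ratio of the cluster's share from 0.69 to 0.81, and the log2 ratio to the neighbouring group from -0.15 to 0.03. Taken as medians of log2 CPM rather than sums, that last ratio was -0.38 (exact permutation p = 0.1). With the replicate number as a block, 15 members were higher (11.6% of all rows) and 2 lower (17.9%). In that fit 3 hairpins shifted arms and 8 members were unlike their cluster. Deviations of same-numbered libraries correlated at -0.27, 0.19 and -0.18, and not every library correlated best with its own number. Correlations over so few libraries cannot show whether the samples were paired. The numbers are those of the sample titles, and the column names of the control-labelled libraries carry other numbers. The cause of the differences between settings was not tested. Rows near 10 counts carry the widest errors.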

Other observations

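Sequence properties were set beside the fold changes. Over the 54 tested members with a sequence, Spearman's rho between the log2 fold change and the GC share of the mature sequence was 0.00, and with the share of U it was 0.23. With the log2 mean level over all 57 tested members it was also 0.23. The ratio of control-labelled library 3 to libraries 1 and 2 had a rho of -0.33 with the GC share over the same 54. Members share libraries and some share a hairpin, so these are descriptions.

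The 5 most abundant members, miR-381-3p, miR-379-5p, miR-541-5p, miR-300-3p and miR-382-3p, held a nearly constant part of the cluster's reads, 61.3 to 64.3% in the control-labelled and 62.7 to 65.6% in the SCI-labelled libraries, although miR-381-3p grew within it. miR-495-3p grew from 3.53% ± 0.688 to 6.57% ± 1.41, and miR-134-5p went from 2.51% ± 0.344 to 1.19% ± 0.10 (SD, n = 3 each).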
